A study of Homo sapiens with 8 samples.

Results

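The ATP-binding cassette (ABC) genes were followed in 8 RNA-seq libraries of Caco-2/15, a line from a human colon carcinoma whose cells come to resemble absorptive enterocytes when the monolayer closes. The members were the protein-coding genes whose symbol is ABC, a letter A to G and a digit, which gave 45 of the 58302 genes counted and of the 19817 protein-coding genes among them. A further 16 genes matched the symbol but are pseudogenes, antisense or other non-coding genes and were not members. CFTR, TAP1 and TAP2 belong to the same superfamily under other symbols and are given beside the members.

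The groups were Z2flag cells, heterozygous for a Flag tag on H2AFV (the H2A.Z.2 histone gene), at 7 days after confluence (Pc) and subconfluent (Sc), and Z1flag cells, heterozygous for a Flag tag on H2AFZ (the H2A.Z.1 histone gene), at the same 2 states. Each group had 2 libraries, numbered by experiment. All 8 libraries came from tagged cells, so no untagged line enters any comparison, and no source used here says whether each line is 1 clone. The labels do not say whether the 2 libraries of a group came from separate cultures, so p-values measure the spread between these libraries, which may be technical.

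ABC proteins bind and hydrolyse ATP on paired nucleotide-binding domains. Most couple this to moving drugs, bile pigments, sterols, phospholipids, peptides or cofactors across a membrane, while the E and F subfamilies lack membrane domains and work on ribosomes. In enterocytes ABCB1, ABCG2 and ABCC2 sit in the apical membrane and return compounds to the lumen, ABCC3 sits in the basolateral membrane and passes conjugates towards blood, and ABCA1 exports cholesterol to apolipoprotein A-I.

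Total gene counts ran from 17063826 to 40881682 per library, and the members held 0.163% to 0.239% of them. Library 1 of Z1flag Pc stood apart in several genes, and both Z1flag libraries of experiment 1 had more reads outside genes (31.4% in Pc, 32.02% in Sc) than the other 6, which had 20.6% to 24.5%. HSPA8, a constitutive chaperone, had a level of 808 in that Z1flag Pc library and of at least 2733 in every other library, in CPM (counts scaled by library size with trimmed-mean, TMM, factors). Enterocyte markers were present in every library: their summed level was 1716 to 2297 CPM in Pc and 1091 to 1450 CPM in Sc, although FABP2, the intestinal fatty acid binding protein gene, was near 0 throughout. Of the 7 enterocyte markers tested, 3 rose in Z2flag and 5 in Z1flag (2 without both Z1flag libraries of experiment 1), and none fell. Over all genes tested, 18.3% rose in Z2flag and 21.3% in Z1flag. Of the other cell types, hepatocyte markers summed to 3622 to 6646 CPM in Pc and 1010 to 1931 CPM in Sc, and 3 of 5 tested rose in Z2flag and 4 in Z1flag (2 without both Z1flag libraries of experiment 1). Goblet cell markers summed to 59.2 to 148 CPM in Pc and 7.12 to 30.6 CPM in Sc, with MUC2 near 0. Enteroendocrine markers summed to at most 4.43 CPM in any library, with CHGA and NEUROD1 at 0, and leukocyte and endothelial markers to 10.5 to 26.9 CPM in Pc and 5.54 to 12.4 CPM in Sc. Of the 4 leukocyte and endothelial markers tested, 1 rose in Z2flag and 4 in Z1flag (1 without both Z1flag libraries of experiment 1), and none fell. The part of these cell types in the results that follow was not tested.

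In each line a similar number of ABC genes rose and fell after confluence, and all 13 that passed in Z2flag also passed in Z1flag in the same direction. Of all genes tested, 3335 rose in Z2flag and 2628 of these also rose in Z1flag, while 3529 fell in Z2flag and 2551 of these also fell in Z1flag. A filter on low counts kept 32 of the 45 members. In Z2flag, 5 of the 32 rose and 8 fell at an adjusted p under 0.05 (edgeR quasi-likelihood test, Benjamini-Hochberg over 18240 genes), where 18.3% of all genes tested rose and 19.3% fell (37.6% in either direction). Of the protein-coding genes, 18.9% rose and 22.8% fell in Z2flag. In Z1flag, 6 members rose and 9 fell, where 21.3% of all genes rose and 19.1% fell (40.5% in either direction), and of the protein-coding genes 21.6% rose and 23.6% fell. Read against these backgrounds, the members' counts give no result about the family as a whole. Their median log2 fold changes were -0.41 in Z2flag and 0.32 in Z1flag, beside -0.05 and 0.04 over all genes. In Z2flag, 8 members rose without library 1 or 2 of Z1flag Pc, and 2 and 3 rose without library 1 or 2 of Z2flag Sc. There, 5 fell without library 2 of Z2flag Pc or either library of Z2flag Sc. In Z1flag, 11 rose without library 2 of Z1flag Pc.

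Among the genes that rose in both lines were ABCC3, ABCA5, ABCA2 and ABCB6, and those that fell in both were ABCC9, ABCE1, ABCF2, ABCD3, ABCB8, ABCC4, ABCF1 and ABCB10. Over all genes, 14.4% rose in both lines and 14.0% fell in both. ABCD4 rose and ABCG2 fell in Z1flag without passing in Z2flag. No member was called in opposite directions, 25 of the 32 had the same sign in both lines, and 17 passed in neither. The mean change over both lines called 7 members higher and 9 lower, where 27.8% of all genes were higher and 27.5% lower (55.4% in either direction), and of the protein-coding genes 27.4% and 32.4%. These calls added ABCB9 and ABCF3 and left out ABCG2.

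With upper-quartile scaling in place of trimmed means, the median over all genes came to 0.11 in Z2flag and 0.26 in Z1flag (log2). Under it, 60.4% of all calls in Z2flag were higher, against 48.6% with trimmed means, and 67.1% in Z1flag, against 52.7%. The members then split 5 higher and 8 lower in Z2flag, and 10 higher and 7 lower in Z1flag, so which direction had more members in Z1flag depends on the scaling. No called member changed sign under any alternative run.

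**Figure D1:**
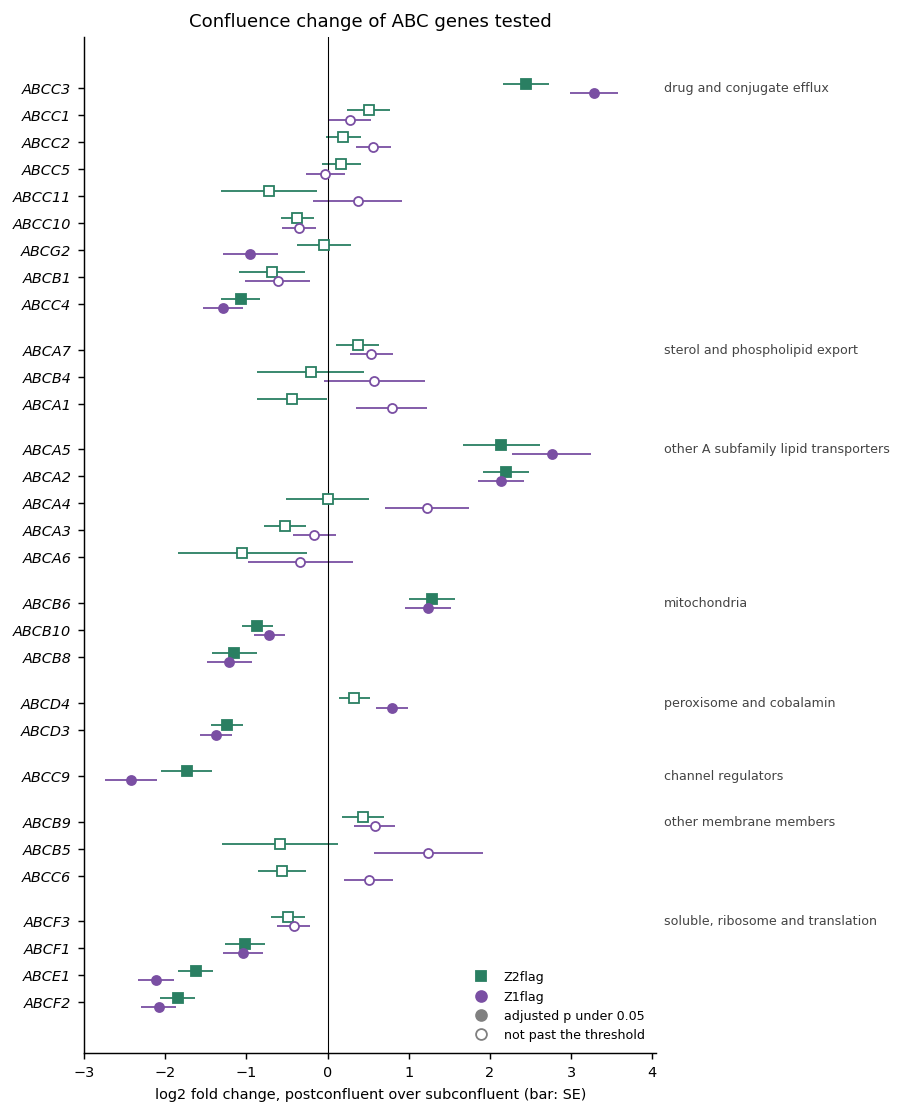
Log2 fold changes (Pc over Sc, x axis, with standard errors) of ABC genes tested, grouped by role, with Z2flag as squares above Z1flag as circles; filled symbols passed an adjusted p of 0.05. ABCC3 lies farthest right in both lines, at 2.45 and 3.28, and ABCF2, ABCE1 and ABCC9 lie farthest left among the filled symbols.

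Among the drug and conjugate pumps, ABCC3 rose and ABCC4 fell in both lines, while the apical pumps ABCB1 and ABCC2 did not pass in either. The role held 9 tested genes, of which 1 rose and 1 fell in Z2flag, and 1 rose and 2 fell in Z1flag. Of all genes tested, 18.3% rose and 19.3% fell in Z2flag, and 21.3% rose and 19.1% fell in Z1flag. Beside these shares, the counts give no result about the role as a whole. ABCC3 (MRP3), the basolateral exporter of glucuronides and bile salts, had 119 and 168 CPM in Z2flag Pc libraries, against 28.6 and 24.1 CPM in Z2flag Sc libraries. It had 248 and 163 CPM in Z1flag Pc, against 17.5 and 24.7 CPM in Z1flag Sc. Every Pc library was several times above every Sc library, with log2 fold changes of 2.45 ± 0.28 in Z2flag (SE, adjusted p = 0.000362) and 3.28 ± 0.30 in Z1flag (SE, adjusted p = 0.000131).

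ABCC4 (MRP4), an exporter of cyclic nucleotides, prostaglandins and nucleotide analogs, had 98.8 and 74.6 CPM in Z2flag Pc, against 179 and 186 CPM in Z2flag Sc. In Z1flag it had 105 and 74.6 CPM in Pc, against 254 and 184 CPM in Sc. The states did not overlap in either line, and the log2 fold changes were -1.07 ± 0.25 in Z2flag (SE, adjusted p = 0.00773) and -1.29 ± 0.25 in Z1flag (SE, adjusted p = 0.00301). Without library 2 of Z2flag Pc the adjusted p of ABCC4 in Z2flag was 0.0941 and its log2 fold change -0.79. Per kilobase of exon, ABCC3 stood at 1.08 to 2.13 times the level of ABCC4 in the 4 Pc libraries, and at 0.0621 to 0.144 times in the 4 Sc libraries, so the order of these pumps differed between the states.

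ABCC2 (MRP2), the apical exporter of bilirubin and drug conjugates, had the highest level per length of all members in Pc, at 35.0 ± 3.2 CPM per kb (SD, n = 4), and stood at 27.1 ± 4.7 CPM per kb in Sc (SD, n = 4). Its libraries held 257 and 275 CPM in Z2flag Pc, against 230 and 236 CPM in Z2flag Sc, and 310 and 256 CPM in Z1flag Pc, against 158 and 226 CPM in Z1flag Sc. Every Pc library lay above every Sc library, but the log2 fold changes, 0.19 in Z2flag (adjusted p = 0.507) and 0.56 in Z1flag (adjusted p = 0.0622), did not pass. In Z1flag it passed without library 2 of Pc (adjusted p = 0.0227) or without library 2 of Sc (adjusted p = 0.0495), with upper-quartile scaling (adjusted p = 0.0174), with limma voom (adjusted p = 0.0494), and with a stricter level filter (adjusted p = 0.0279).

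ABCB1 (P-glycoprotein), the broad efflux pump of hydrophobic drugs, had 131 and 92.7 CPM in Z2flag Pc, against 207 and 154 CPM in Z2flag Sc. In Z1flag it had 49.8 and 98.4 CPM in Pc, against 69.6 and 157 CPM in Sc. The states were separate within Z2flag and overlapped in Z1flag, where library 1 was below library 2 in both states. The log2 fold change was -0.69 in Z2flag (95% interval -1.59 to 0.21, adjusted p = 0.204) and -0.62 in Z1flag (95% interval -1.52 to 0.28, adjusted p = 0.249). With no filter on low counts ABCB1 passed as lower in both lines, at adjusted p of 0.0134 in Z2flag and 0.0217 in Z1flag.

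ABCG2 (BCRP), the apical half-transporter of drugs, urate and porphyrins, had 25.3 and 12.3 CPM in Z2flag Pc, against 20.7 and 18.1 CPM in Z2flag Sc. In Z1flag it had 7.75 and 11.9 CPM in Pc, against 18.7 and 19.3 CPM in Sc. The Z2flag Pc libraries lay on either side of the Sc libraries, and both Z1flag Pc libraries lay below them. The log2 fold change was -0.04 ± 0.33 in Z2flag (SE, adjusted p = 0.93) and -0.95 ± 0.34 in Z1flag (SE, adjusted p = 0.0459). The Z1flag call was lost in 11 of 18 alternatives. Its adjusted p was 0.192 without library 1 of Z1flag Pc, 0.133 and 0.149 without library 1 or 2 of Z1flag Sc, and 0.0646 and 0.0642 without library 1 or 2 of Z2flag Sc.

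None of the other pumps of this role passed in either line. ABCC1 (MRP1), a glutathione and leukotriene conjugate pump, had 68.2 and 55.0 CPM in Z2flag Pc, against 43.9 and 42.7 CPM in Z2flag Sc. It had 37.4 and 67.6 CPM in Z1flag Pc, against 46.3 and 40.6 CPM in Z1flag Sc. Its log2 fold changes were 0.51 in Z2flag (adjusted p = 0.155) and 0.27 in Z1flag (adjusted p = 0.442). Library 1 of Z1flag Pc was the lowest of the 8, and without it ABCC1 passed as higher in Z2flag (adjusted p = 0.0115) and in Z1flag (adjusted p = 0.0195); it also passed in Z2flag without library 2 of Z1flag Pc (adjusted p = 0.0125). ABCC5 and ABCC10 had log2 fold changes of 0.17 and -0.37 in Z2flag and of -0.03 and -0.35 in Z1flag, with no call. ABCC11, at most 0.765 CPM in any library, had -0.72 in Z2flag (adjusted p = 0.356) and 0.37 in Z1flag (adjusted p = 0.622). Summed per kilobase, the role stood at 93.9 to 103.9 CPM per kb in Pc and 80.9 to 107.8 CPM per kb in Sc, ranges that overlap.

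**Figure D2:**
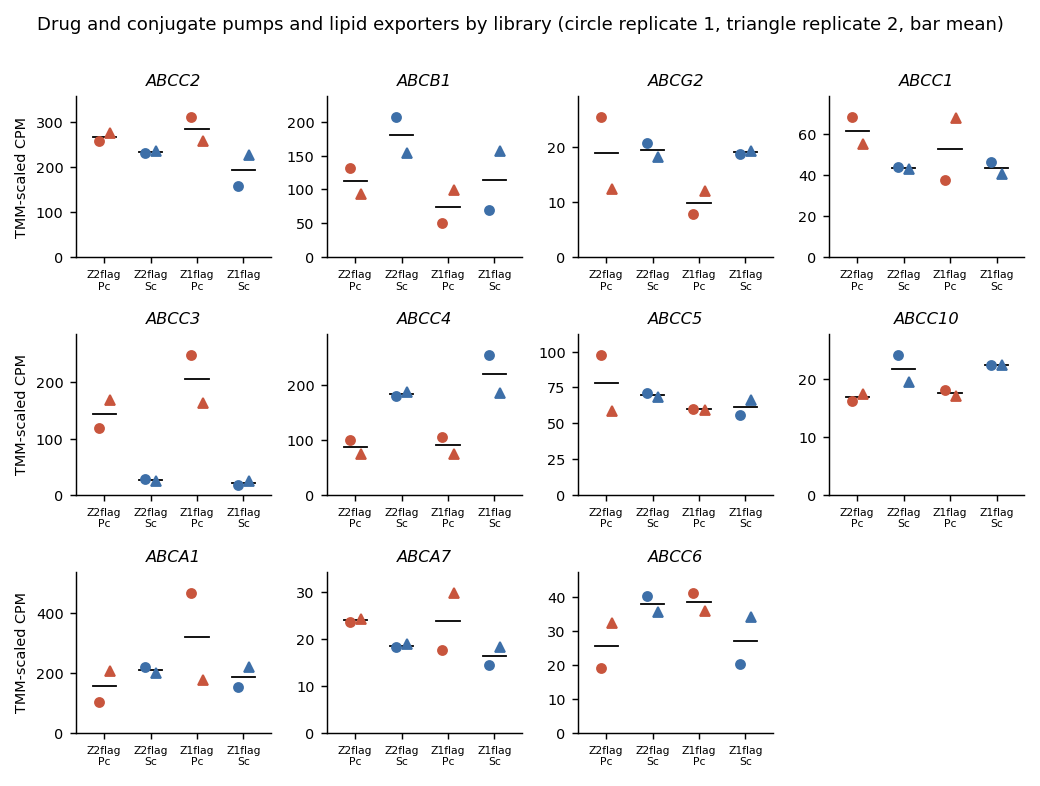
TMM-scaled CPM (y axis, from 0) of ABC pumps and lipid exporters in each library, with Pc (red) left of Sc (blue) and Z2flag left of Z1flag; circles are replicate 1, triangles replicate 2 and bars group means. ABCC3 and ABCC4 separate by state in both lines, while the libraries of ABCB1, ABCG2 and ABCA1 overlap in at least 1 line.

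None of the 3 tested sterol and phospholipid exporters passed in either line. ABCA1, which loads cholesterol onto apolipoprotein A-I, had 104 and 205 CPM in Z2flag Pc, against 219 and 201 CPM in Z2flag Sc. In Z1flag it had 469 and 175 CPM in Pc, against 152 and 221 CPM in Sc. The 469 CPM came from library 1 of Z1flag Pc, and the other 3 Pc libraries did not lie above the Sc range. The log2 fold changes were -0.44 in Z2flag (adjusted p = 0.445) and 0.79 in Z1flag (adjusted p = 0.172), and the Z1flag value was -0.05 without that library. Without library 2 of Z1flag Pc it was 1.33 and passed (adjusted p = 0.014), and it passed with no filter on low counts (adjusted p = 0.0209).

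ABCA7, a phospholipid exporter, had log2 fold changes of 0.37 in Z2flag and 0.54 in Z1flag with no call. Without library 1 of Z1flag Pc it passed as higher in Z2flag (adjusted p = 0.0477) and in Z1flag (adjusted p = 0.00752), and with upper-quartile scaling in Z1flag (adjusted p = 0.0385). ABCB4, the phosphatidylcholine floppase of bile canaliculi, had at most 0.714 CPM in any library. ABCG1, an exporter of cholesterol to lipoprotein particles, had 24 counts over the 4 Pc libraries and none over the 4 Sc libraries. Of these, 12 and 7 were in Z1flag Pc and 3 and 2 in Z2flag Pc. Against a floor of 3 counts over the Sc group, the pooled Pc counts stood 12.5-fold higher. That fold takes the Pc counts as exact and is no bound for either line. ABCG1 was under the filter and was not tested in the fit that used it. ABCG5 and ABCG8, which together form the sterol pump of the enterocyte apical membrane, had 3 and 2 counts over all Pc libraries, against 2 and 4 counts over all Sc libraries.

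Among the members tested, the largest rises after that of ABCC3 were in ABCA5 and ABCA2, lipid transporters of lysosomal and endosomal membranes. ABCA2 had 60.9 and 70.6 CPM in Z2flag Pc, against 16.6 and 12.04 CPM in Z2flag Sc. It had 44.3 and 76.2 CPM in Z1flag Pc, against 14.3 and 13.1 CPM in Z1flag Sc. All 4 Pc libraries were well above all 4 Sc libraries, and the log2 fold changes were 2.20 ± 0.28 in Z2flag (SE, adjusted p = 0.000549) and 2.14 ± 0.28 in Z1flag (SE, adjusted p = 0.000524).

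ABCA5 had 26.2 and 22.7 CPM in Z2flag Pc, against 5.04 and 6.05 CPM in Z2flag Sc. It had 52.7 and 14.5 CPM in Z1flag Pc, against 4.96 and 4.96 CPM in Z1flag Sc. The Pc libraries differed widely among themselves but none came near the Sc range. The log2 fold changes were 2.14 ± 0.48 in Z2flag (SE, adjusted p = 0.00667) and 2.76 ± 0.49 in Z1flag (SE, adjusted p = 0.00203). The Z1flag value was 1.58 without library 1 of Z1flag Pc and 3.40 without library 2, both past the threshold, and the adjusted p in Z2flag was 0.0598 without library 1 of Z2flag Sc.

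The other A subfamily genes were low or did not pass. ABCA3, the surfactant lipid transporter of lung, had log2 fold changes of -0.52 in Z2flag and -0.16 in Z1flag. ABCA4, the retinal transporter of the photoreceptor, had at most 2.31 CPM; it passed as higher in Z1flag without library 2 of Z1flag Pc (adjusted p = 0.0299). ABCA6 had at most 0.908 CPM; it passed as lower in Z1flag without library 1 of Z1flag Pc (adjusted p = 0.0417). ABCA8, ABCA9, ABCA10, ABCA12 and ABCA13 were under the filter, and the most counts any of them had in a library was 18, in ABCA10, whose exons overlap those of ABCA5 by 318 bp on the same strand.

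Among the half-transporters listed here under the mitochondrial role, ABCB6 rose and ABCB8 and ABCB10 fell in both lines. ABCB10, a transporter of the inner membrane needed for haem synthesis in mouse red cell precursors, had 66.3 and 75.8 CPM in Z2flag Pc, against 130.02 and 129 CPM in Z2flag Sc. It had 86.1 and 67.2 CPM in Z1flag Pc, against 126 and 126 CPM in Z1flag Sc. Each Pc library was below each Sc library, and the log2 fold changes were -0.86 ± 0.19 in Z2flag (SE, adjusted p = 0.00645) and -0.72 ± 0.19 in Z1flag (SE, adjusted p = 0.0138). The ABCB10 call in Z2flag was lost without library 1 of Pc (adjusted p = 0.0738), 1 of Sc (0.0504) or 2 of Sc (0.0528). In Z1flag it was lost without either Sc library (adjusted p = 0.0678 each), with upper-quartile scaling (adjusted p = 0.066) and in a fit of the Z1flag libraries alone (adjusted p = 0.0703).

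ABCB6, a porphyrin transporter, was lower in level, with 9.48 and 7.58 CPM in Z2flag Pc, against 3.61 and 3.38 CPM in Z2flag Sc. It had 7.07 and 7.25 CPM in Z1flag Pc, against 3.42 and 2.67 CPM in Z1flag Sc. Every Pc library was above every Sc library. Its log2 fold changes were 1.29 ± 0.28 in Z2flag (SE, adjusted p = 0.00606) and 1.23 ± 0.28 in Z1flag (SE, adjusted p = 0.00734). The adjusted p was 0.06 and 0.0796 in Z2flag without library 1 or 2 of Z2flag Sc, and 0.0727 in Z1flag without library 2 of Z1flag Sc.

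ABCB8, a part of the mitochondrial potassium channel and iron export, had 6.89 and 6.98 CPM in Z2flag Pc, against 15.5 and 15.2 CPM in Z2flag Sc, and 4.65 and 7.91 CPM in Z1flag Pc, against 14.2 and 14.7 CPM in Z1flag Sc. The states were separate in both lines. Its log2 fold changes were -1.15 ± 0.28 in Z2flag (SE, adjusted p = 0.0103) and -1.21 ± 0.28 in Z1flag (SE, adjusted p = 0.00746). In Z2flag the adjusted p was 0.0746 and 0.0671 without library 1 or 2 of Pc and 0.0625 and 0.0629 without library 1 or 2 of Sc.

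The 250 bases before the RefSeq start of ABCB6, which rose, and of ABCB8, which fell, are shown. Both genes were listed here under the mitochondrial role and moved in opposite directions. RNA counts do not show where a protein lies in the cell. They come from RefSeq (GRCh38.p14), read 5′ to 3′ on the gene's strand. Capitals mark matches, on either strand, to any motif searched. One of these is the GC box, GGGCGG. Another is the box named for its letters, CCAAT. The E-box is CACGTG, and the antioxidant response core is TGACNNNGC. In ABCB6 the E-box and the antioxidant core overlap.
ABCB6, chr2:219218959-219219208, minus strand: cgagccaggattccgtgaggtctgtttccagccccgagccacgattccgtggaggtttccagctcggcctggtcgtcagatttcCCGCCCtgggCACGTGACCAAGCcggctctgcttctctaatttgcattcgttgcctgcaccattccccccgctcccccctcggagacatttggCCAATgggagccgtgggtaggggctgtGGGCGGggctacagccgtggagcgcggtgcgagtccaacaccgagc
ABCB8, chr7:151028200-151028449, plus strand: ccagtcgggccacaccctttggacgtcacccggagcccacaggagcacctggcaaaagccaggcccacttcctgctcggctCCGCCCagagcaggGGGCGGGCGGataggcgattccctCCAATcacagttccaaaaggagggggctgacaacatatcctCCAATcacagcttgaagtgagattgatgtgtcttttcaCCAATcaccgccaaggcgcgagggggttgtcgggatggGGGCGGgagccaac
Both windows hold GC boxes and CCAAT boxes, and the ABCB6 window also holds an E-box. Windows were on hand for 35 of the 45 members, as 53 entries; that of ABCC3 was not among them. A CCAAT box was in 20.8% of the 53 entries and in 32% of 35116 windows of the same length, a GC box in 47.2% and 42.6%, an E-box in 17% and 6.34%, and the antioxidant core in 17% and 10.9%. Entries follow RefSeq starts, so genes with several starts weigh more, and overlapping ABCG2 entries hold the same E-box. The difference between these shares was not tested. A match is a stretch of letters and shows no binding.

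Of the peroxisomal and cobalamin genes, ABCD3 fell in both lines and ABCD4 rose in Z1flag. ABCD3 (PMP70), which takes branched-chain and bile acid precursors into peroxisomes, had 136 and 118 CPM in Z2flag Pc, against 276 and 323 CPM in Z2flag Sc. It had 145 and 121 CPM in Z1flag Pc, against 345 and 344 CPM in Z1flag Sc. The Pc libraries were less than the lowest Sc library in both lines, and the log2 fold changes were -1.24 ± 0.20 in Z2flag (SE, adjusted p = 0.00133) and -1.37 ± 0.20 in Z1flag (SE, adjusted p = 0.000741). PEX3, which inserts peroxisomal membrane proteins and is no member, also fell (log2 fold changes -0.94 in Z2flag and -1.45 in Z1flag), while its partner PEX19 had -0.11 and 0.04 with no call.

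ABCD4, which with LMBRD1 passes cobalamin out of lysosomes, had 45.9 and 41.3 CPM in Z2flag Pc, against 37.0 and 32.4 CPM in Z2flag Sc. It had 51.5 and 42.5 CPM in Z1flag Pc, against 25.4 and 28.9 CPM in Z1flag Sc. All Pc libraries lay above all Sc libraries; the log2 fold change was 0.33 ± 0.19 in Z2flag (SE, adjusted p = 0.205) and 0.79 ± 0.20 in Z1flag (SE, adjusted p = 0.0101). The Z1flag call was lost without library 1 of Z1flag Sc (adjusted p = 0.105), and ABCD4 passed in Z2flag without library 1 or 2 of Z1flag Pc (adjusted p = 0.0418 and 0.0454). LMBRD1 rose by 1.03 on the log2 scale in each line, and MMACHC, the cytosolic protein that receives the cobalamin, fell (-2.47 in Z2flag and -1.87 in Z1flag).

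ABCC9 (SUR2), the regulatory subunit of ATP-sensitive potassium channels, fell more than any other member in Z1flag. It had 49.7 and 23.8 CPM in Z2flag Pc, against 108.0 and 137 CPM in Z2flag Sc. It had 33.4 and 27.6 CPM in Z1flag Pc, against 178 and 148 CPM in Z1flag Sc. Every Pc library was far below the lowest Sc library of its line, and the log2 fold changes were -1.74 ± 0.32 in Z2flag (SE, adjusted p = 0.00258) and -2.42 ± 0.32 in Z1flag (SE, adjusted p = 0.000541).

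KCNJ8, the pore subunit that pairs with ABCC9, lies 21.8 kb from it on chromosome 12 and also fell. It had 63.3 and 49.4 CPM in Z2flag Pc, against 128 and 169 CPM in Z2flag Sc, and 44.4 and 70.6 CPM in Z1flag Pc, against 170 and 177 CPM in Z1flag Sc. Both genes were lower in every Pc library than in any Sc library, and the KCNJ8 log2 fold changes were -1.40 (adjusted p = 0.00278) and -1.59 (adjusted p = 0.00134) in Z2flag and Z1flag. Per kilobase, ABCC9 stood at 0.0837 to 0.168 times KCNJ8 in Pc and 0.173 to 0.224 times in Sc. ABCC8 (SUR1), the other regulatory subunit, had 8 counts over the Pc libraries and 1 over the Sc libraries, and its pore partner KCNJ11 did not pass.

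ABCC9 and KCNJ8 are also known from pericytes and muscle. Of the 4 fibroblast markers tested, 3 (COL3A1, LUM and PDGFRA) fell in each line and COL1A1 rose in each. Of all genes tested, 14.0% fell in both lines and 14.4% rose in both. The summed level of the 6 fibroblast markers was 56.5 to 80.3 CPM in Pc and 172 to 212 CPM in Sc, and COL1A2 had no count in any library. Their part in the result was not tested.

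**Figure D3:**
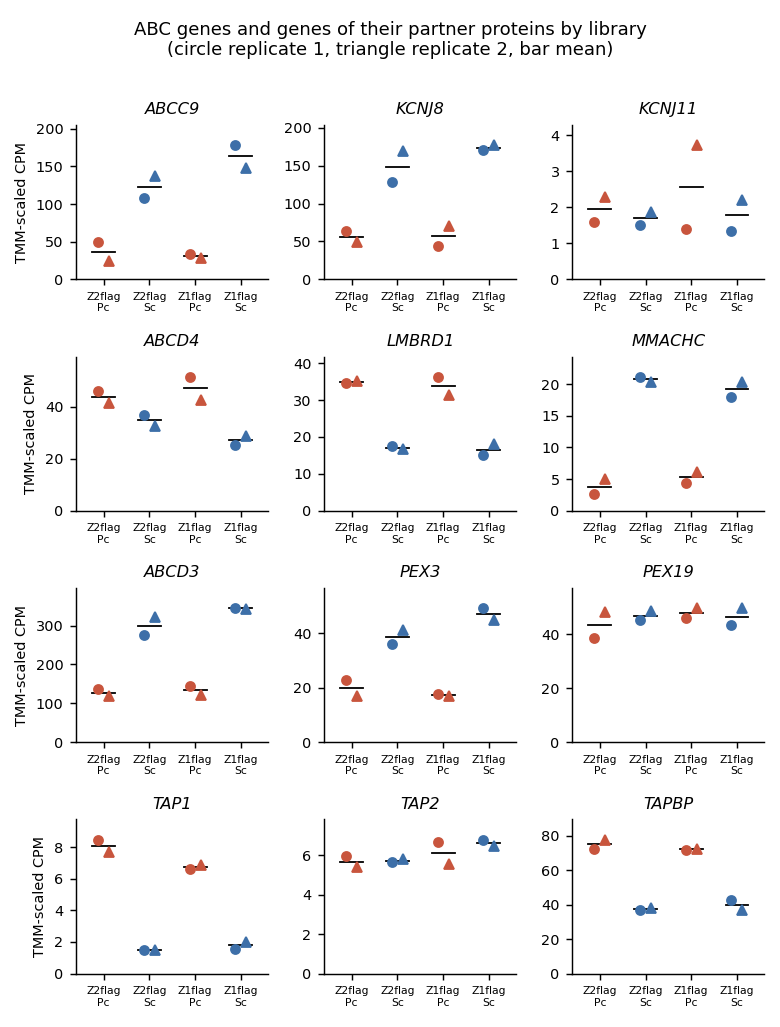
TMM-scaled CPM (y axis, from 0) of ABC genes and of genes for partner proteins in each library, with Pc (red) left of Sc (blue) and Z2flag left of Z1flag; circles are replicate 1, triangles replicate 2 and bars group means. ABCC9 and KCNJ8 are lower in every Pc library, LMBRD1 and MMACHC move in opposite directions, and TAP1 is higher in Pc while TAP2 overlaps.

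Of the 4 soluble E and F subfamily genes, ABCE1, ABCF1 and ABCF2 fell in both lines, and ABCF3 did not pass in either line (log2 fold changes -0.49 in Z2flag and -0.42 in Z1flag), although it was lower in the mean over both lines (-0.45, adjusted p = 0.0228). Of all genes tested, 14.0% fell in both lines and 27.5% were lower in the mean over both. Summed per kilobase, the 4 soluble genes stood at 35.3 to 54.4 CPM per kb in Pc and 109.2 to 114.5 CPM per kb in Sc. In bulk RNA, less of these messages in every cell and fewer cells that carry them cannot be told apart.

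ABCE1, which splits ribosomes after termination so that they can be reused, had 97.2 and 67.9 CPM in Z2flag Pc, against 237 and 272 CPM in Z2flag Sc. It had 62.2 and 66.0 CPM in Z1flag Pc, against 285 and 271 CPM in Z1flag Sc. The states were far apart in both lines, with log2 fold changes of -1.62 ± 0.22 in Z2flag (SE, adjusted p = 0.000637) and -2.12 ± 0.22 in Z1flag (SE, adjusted p = 0.000219). Exons of ANAPC10 and OTUD4 overlap those of ABCE1 by 469 and 276 bp on the opposite strand, and no source used here gives the strand setting of the counting.

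ABCF2 had 21.7 and 21.4 CPM in Z2flag Pc, against 74.6 and 80.3 CPM in Z2flag Sc. It had 15.3 and 22.5 CPM in Z1flag Pc, against 80.3 and 79.2 CPM in Z1flag Sc. The 4 Sc libraries lay close together and far above the Pc libraries, and the log2 fold changes were -1.85 ± 0.22 in Z2flag (SE, adjusted p = 0.00037) and -2.08 ± 0.22 in Z1flag (SE, adjusted p = 0.000219). In GENCODE v29 another protein-coding gene, AC021097.2, shares 45.8% of the ABCF2 exon length on the same strand, and AC068946.2 shares 54.7% of that of ABCB6. The deposited counts hold no row for AC021097.2 or AC068946.2.

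ABCF1, which acts in translation initiation, had 92.1 and 68.7 CPM in Z2flag Pc, against 164 and 162 CPM in Z2flag Sc. It had 54.6 and 89.3 CPM in Z1flag Pc, against 143 and 153 CPM in Z1flag Sc. The states did not overlap, and the log2 fold changes were -1.02 ± 0.25 in Z2flag (SE, adjusted p = 0.0108) and -1.04 ± 0.25 in Z1flag (SE, adjusted p = 0.00899). In Z2flag the adjusted p was 0.126 without library 2 of Pc, 0.0533 without library 1 of Sc and 0.0557 without library 2 of Sc, and in Z1flag it was 0.0565 without library 2 of Sc. ABCF3 passed as lower in Z1flag without library 2 of Z1flag Pc (adjusted p = 0.0381).

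The windows before the RefSeq start of ABCE1 and ABCF2, which fell, are set beside that of ABCA5, which rose, in the same format as those of ABCB6 and ABCB8. GENCODE 29 starts the genes shown at other bases: the whole ABCE1 window and part of each of the other 4 lie within the gene bounds it gives.
ABCE1, chr4:145098061-145098310, plus strand: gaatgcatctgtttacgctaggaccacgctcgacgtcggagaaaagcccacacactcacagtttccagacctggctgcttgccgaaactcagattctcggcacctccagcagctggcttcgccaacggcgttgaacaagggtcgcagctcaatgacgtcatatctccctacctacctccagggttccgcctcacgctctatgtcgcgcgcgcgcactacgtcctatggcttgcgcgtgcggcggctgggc
ABCF2, chr7:151227206-151227455, minus strand: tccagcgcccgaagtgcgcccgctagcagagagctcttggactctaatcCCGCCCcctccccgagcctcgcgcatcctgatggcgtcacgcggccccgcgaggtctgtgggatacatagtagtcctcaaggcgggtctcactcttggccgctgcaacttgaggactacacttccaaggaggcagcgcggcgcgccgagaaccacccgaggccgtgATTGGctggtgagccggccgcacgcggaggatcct
ABCA5, chr17:69327134-69327383, minus strand: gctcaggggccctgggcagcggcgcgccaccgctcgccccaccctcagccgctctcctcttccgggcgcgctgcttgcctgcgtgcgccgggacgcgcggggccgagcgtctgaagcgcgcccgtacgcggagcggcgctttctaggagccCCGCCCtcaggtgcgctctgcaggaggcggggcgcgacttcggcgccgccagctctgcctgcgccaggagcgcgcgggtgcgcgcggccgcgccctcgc
The ABCE1 window holds none of the 8 motifs searched, which besides those named were a nuclear receptor half-site (AGGTCA, 3.77% of member entries and 12.1% of all windows), an HNF1 half-site (GTTAAT, 1.89% and 6.23%), a TATA box (TATAAA, 11.3% and 10.7%) and a CDX core (TTTATG, 9.43% and 9.64%). The ABCF2 window holds a CCAAT box and a GC box, and the ABCA5 window a GC box. Guanine and cytosine made up 60.0% of the ABCE1 window, 66.4% of the ABCF2 window and 79.2% of the ABCA5 window, where the median of all windows was 58%.

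**Figure D4:**
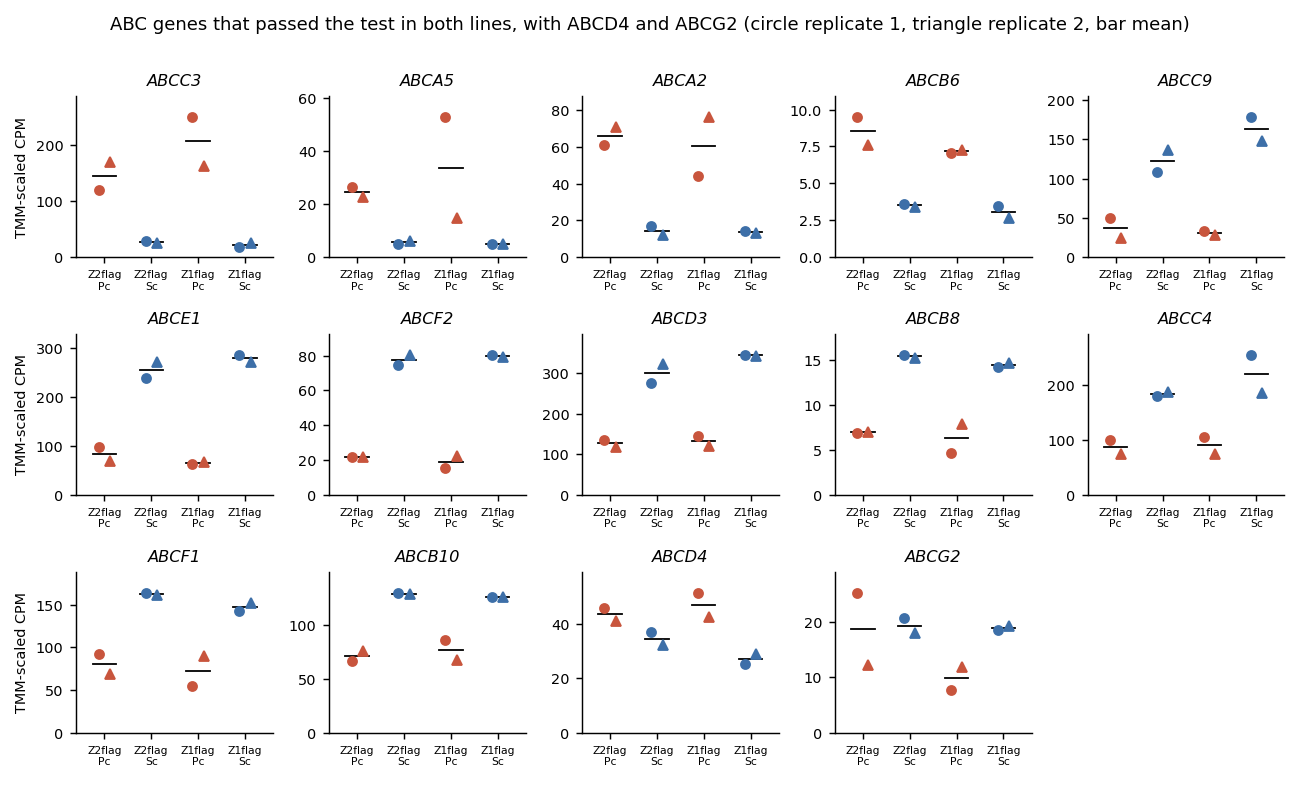
TMM-scaled CPM (y axis, from 0) in each library of ABC genes that passed in both lines, with ABCD4 and ABCG2; Pc (red) is left of Sc (blue) and Z2flag left of Z1flag, with circles for replicate 1, triangles for replicate 2 and bars for group means. The Pc and Sc libraries of each gene shown are separate in both lines, except that the Z2flag libraries of ABCG2 overlap.

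Of the remaining membrane members, none passed in either line. ABCB9, a lysosomal peptide transporter, had log2 fold changes of 0.44 in Z2flag and 0.58 in Z1flag and was higher in the mean over both lines (0.51, adjusted p = 0.0361); in Z1flag it passed without library 1 of Z1flag Pc (adjusted p = 0.032), with upper-quartile scaling (adjusted p = 0.0302) and with a stricter level filter (adjusted p = 0.0395). Exons of AC026362.1, OGFOD2 and ARL6IP4 overlap 20.71%, 12.46% and 11.96% of the ABCB9 exon length on the opposite strand, so the unknown strand setting bears on ABCB9 too. ABCC6, whose loss causes pseudoxanthoma elasticum, had 19.0 and 32.2 CPM in Z2flag Pc, against 40.2 and 35.4 CPM in Z2flag Sc, and 41.2 and 35.9 CPM in Z1flag Pc, against 20.2 and 34.1 CPM in Z1flag Sc. It is uncertain, because its near-identical pseudogenes ABCC6P1 and ABCC6P2 also held reads, at 12.2 to 29.7 CPM and 2.79 to 7.28 CPM. ABCB11, the bile salt export pump of hepatocytes, had 4 counts over the Pc libraries and 21 over the Sc libraries, and ABCC12 had none.

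Ordered by level per length, the leading genes differed between the states. In Pc they included ABCC2 (35.0 CPM per kb), ABCA1 (21.0), ABCC3 (18.2), ABCB10 (17.4) and ABCD3 (17.1). ABCC2 had a range of 32.7 to 39.5 CPM per kb and ABCA1 one of 9.18 to 41.3, which overlaps it, while the other 3 overlap each other and lie below ABCC2. In Sc they were ABCE1 (42.5 CPM per kb), ABCD3 (42.4), ABCF1 (34.4), ABCB10 (30.0), ABCC2 (27.1) and ABCB1 (25.3), where ABCE1 and ABCD3 overlap and both lie above the range of ABCF1. ABCC3 stood at rank 4 in Pc and at rank 20 in Sc. Summed over the 45 members, the level was 1710 to 2108 CPM in Pc and 2200 to 2360 CPM in Sc.

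**Figure D5:**
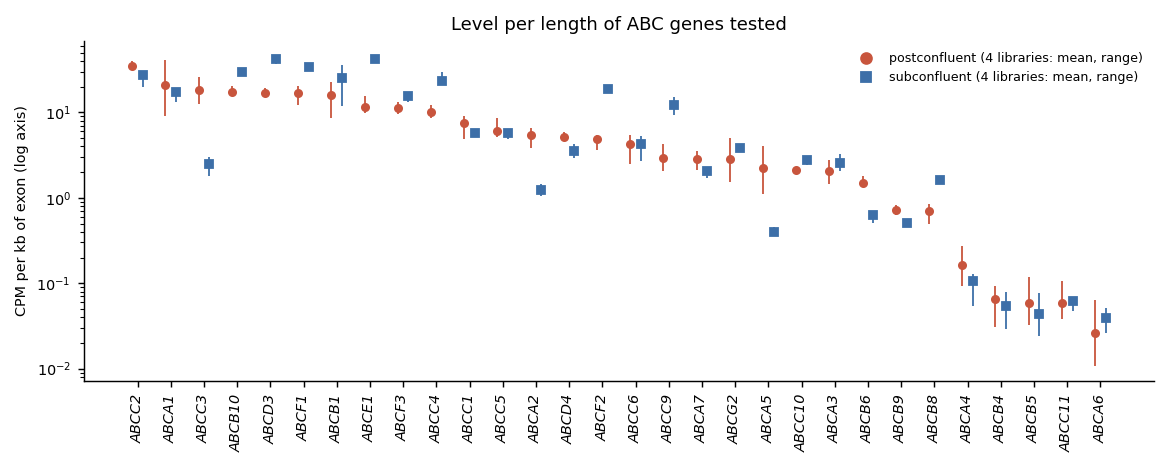
Level per length (CPM per kb of exon, log axis) of tested ABC genes in the order of their Pc mean, as mean and range over 4 Pc libraries (circles) and 4 Sc libraries (squares). ABCC2 leads in Pc at 35.0 and ABCE1 in Sc at 42.5, and ABCA4, ABCB4, ABCB5, ABCC11 and ABCA6 stay far below the rest in both states.

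Counted by separation alone, Pc and Sc libraries did not overlap for 10 members that were higher and 15 that were lower in Z2flag, where 36.3% and 41.2% of all genes were so. In Z1flag the counts were 12 higher and 11 lower, where 35.1% and 33.5% of all genes were so. Over all 8 libraries, 8 members were higher and 9 lower in every Pc library than in any Sc library, where 25.1% and 26.1% of all genes were so.

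No member's confluence change was shown to differ between the lines. The test of the difference called 0 of 32 members at an adjusted p under 0.05 with edgeR, where 0.0% of all genes were called, and DESeq2 and limma voom also called 0. At an unadjusted p under 0.05 edgeR named 1 member, ABCC6 (difference -1.07 on the log2 scale, Z2flag minus Z1flag, 95% interval -2.01 to -0.12, adjusted p = 0.799), DESeq2 named 3 and limma voom 1. Of all 18240 genes tested, edgeR named 902 at that level. For ABCG2 the difference was 0.91 (95% interval -0.14 to 1.96), for ABCA1 -1.23 (95% interval -2.59 to 0.13) and for ABCC3 -0.84 (95% interval -1.69 to 0.02).

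Set directly against each other, Z2flag and Z1flag differed in 0 of 32 members in Pc and in 0 of 32 in Sc (edgeR quasi-likelihood test), where 0.0% of all genes were called in either state, and the other 2 tools also called 0. At an unadjusted p under 0.05 there were 3 members in Pc, among them ABCG2 (0.94) and ABCA1 (-1.06, both Z2flag minus Z1flag on the log2 scale), with 2 each by DESeq2 and limma voom, and 0 in Sc by each tool. Of all 18240 genes tested, edgeR had 1308 at that level in Pc and 195 in Sc. Without library 2 of Z1flag Pc, which leaves library 1 alone to stand for that group, 4 members were called in Pc: ABCC1 (0.78), ABCA6 (-2.10), ABCA5 (-1.05) and ABCA1 (-1.55).

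The 3 superfamily genes under other symbols divided. CFTR, the chloride channel of the apical membrane, had 94.8 and 96.1 CPM in Z2flag Pc, against 209 and 211 CPM in Z2flag Sc, and 162 and 97.2 CPM in Z1flag Pc, against 234 and 214 CPM in Z1flag Sc. It fell by 1.14 on the log2 scale in Z2flag (adjusted p = 0.00525) and by 0.78 in Z1flag (adjusted p = 0.025); the call was lost in Z2flag without library 1 of Z2flag Pc, and in Z1flag without library 1 or 2 of Z1flag Sc, with upper-quartile scaling, with at least 5 CPM in 2 libraries, in a fit of the Z1flag libraries alone and when a call also needed a 2-fold change. TAP1, a subunit of the peptide pump for class I antigen loading, rose by 2.41 in Z2flag (adjusted p = 0.000448) and by 1.90 in Z1flag (adjusted p = 0.00108), while the other subunit TAP2 had -0.01 and -0.12 with no call. TAP1 stood at 1.32 to 1.9 times TAP2 per kilobase in Pc and at 0.308 to 0.415 times in Sc, and TAPBP, which links the pump to class I molecules, rose by 1.01 and 0.86.

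Among 26 receptors and factors known to control ABC genes, 23 were tested; 8 rose and 2 fell in Z2flag, and 13 rose and 1 fell in Z1flag. Over all genes tested, 18.3% rose and 19.3% fell in Z2flag, and 21.3% rose and 19.1% fell in Z1flag. NR1I3 (CAR), a xenobiotic receptor, rose by 4.18 on the log2 scale in Z2flag (adjusted p = 0.000506) and by 5.01 in Z1flag (adjusted p = 0.000267), FOXO1, a forkhead factor, by 1.51 and 1.23, and SREBF2, the sterol factor, by 1.31 and 1.25. The genes that fell, named after their values were seen, were VDR and HNF4A in Z2flag and HNF4A in Z1flag. The counts that rose were 4 and 3 in Z2flag without library 1 or 2 of Z2flag Sc, and 6 and 8 in Z1flag without library 1 or 2 of Z1flag Sc. The count that fell was 1 in Z2flag without library 1 of Z2flag Pc or either library of Z2flag Sc. In Z1flag it was 0 without either library of Z1flag Sc, and 2 without library 2 of Z1flag Pc or either library of Z2flag Pc. When a call also needed a 2-fold change, 5 rose and 1 fell in Z2flag and 0 fell in Z1flag. In Z2flag 1 fell with upper-quartile scaling or with at least 5 CPM in 2 libraries, and in Z1flag 2 fell with no low-count filter and 0 without both Z1flag libraries of experiment 1.

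Among 26 genes of partners and apical anchors, 25 were tested; 6 rose and 5 fell in Z2flag, and 9 rose and 5 fell in Z1flag, beside the same shares of all genes. The 3 with the smallest adjusted p over both lines were MMACHC, KCNJ8 and PEX3, given above. Of those named after their values were seen, TAPBP and LMBRD1 rose in both lines, and FECH, the haem-making partner of ABCB10, fell by 0.95 in Z2flag and by 0.84 in Z1flag. The count that rose in Z2flag was 11 without library 1 or 2 of Z1flag Pc, and 2 and 1 without library 1 or 2 of Z2flag Sc; the count that fell there was 2 without library 2 of Z2flag Pc and 3 without either Z2flag Sc library. The count that rose in Z1flag was 3 without library 1 of Z1flag Sc and 5 without library 2 of Z1flag Sc or either library of Z2flag Sc. In fits of 1 line alone, 11 rose in Z2flag and 4 in Z1flag, and 11 rose in Z2flag without both Z1flag libraries of experiment 1. When a call also needed a 2-fold change, 2 fell in Z2flag and 4 rose in Z1flag.

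Among 27 solute carriers of drugs and bile acids, 21 were tested. In Z2flag 7 rose and 2 fell, where 18.3% and 19.3% of all genes did so. In Z1flag 10 rose and 3 fell, where 21.3% and 19.1% of all genes did so. SLC51A, which encodes OST-alpha of the basolateral bile acid exporter, had 13.8 and 14.0 CPM in Z2flag Pc, against 0.214 and 0.0563 CPM in Z2flag Sc, and 14.6 and 10.6 CPM in Z1flag Pc, against 0.0901 and 0.115 CPM in Z1flag Sc. SLC15A1, the apical peptide carrier, rose by 2.21 in Z2flag (adjusted p = 0.000413) and by 1.98 in Z1flag (adjusted p = 0.000525). SLC19A1, the folate carrier, fell by 2.17 in Z2flag (adjusted p = 0.000722) and by 1.87 in Z1flag (adjusted p = 0.00114). Without library 2 of Z2flag Pc, 1 carrier fell in Z2flag. With at least 5 CPM in 2 libraries, 4 rose in Z2flag and 5 in Z1flag.

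Among 14 genes of sterol uptake and handling, 13 were tested; 8 rose and none fell in Z2flag, and 10 rose and none fell in Z1flag, beside the same shares of all genes. NPC1L1, the cholesterol importer of the apical membrane, rose by 1.25 in Z2flag (adjusted p = 0.00312) and by 1.70 in Z1flag (adjusted p = 0.000738), and MTTP, which loads lipid onto apolipoprotein B, by 2.98 and 4.80. The counts that rose were 5 without library 2 of Z2flag Pc, and 3 and 1 without library 1 or 2 of Z2flag Sc, in Z2flag; in Z1flag they were 4 and 6 without library 1 or 2 of Z1flag Sc. When a call also needed a 2-fold change, 3 rose in Z2flag and 4 in Z1flag.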

How the data were processed

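RNA was measured in 8 libraries of stranded, ribosomal-RNA-depleted, paired-end sequencing from 2 Flag-tagged Caco-2/15 lines in 2 states, 2 libraries a group. The deposited files hold raw read counts per Ensembl gene, made with STAR 2.5.2b, SAMtools and HTSeq on hg38, per the submitters' processing notes; no source used here gives the authors' gene annotation, overlap mode or strand setting. Symbols, types and exon lengths came from GENCODE 29, which matched 58039 of 58302 IDs. HTSeq class rows stayed out of library sizes, and mitochondrial genes had no counts.

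One fit of 4 group means over all 8 libraries (edgeR 4.0.16, R 4.3.3; TMM, filterByExpr, robust quasi-likelihood test, 4 residual degrees of freedom) covered 18240 genes, with Benjamini-Hochberg adjustment over all of them and a threshold of 0.05. Standard errors are the log2 fold change over the root of the F statistic. CPM per kb divides by union exon length. Intervals of log2 fold changes come from the fit. A fold against 0 counts used a floor of 3 counts over that group, with both lines pooled. It covers the counting error of that group only and takes the counts of the other group as exact. Filtering removes members that are low in every group, so counts over the 32 members tested say nothing of the other 13.

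The alternatives tried were DESeq2 1.42.0, limma voom 3.58.1, RLE scaling, upper-quartile scaling, no low-count filter, at least 5 CPM in 2 libraries, a replicate block, only the libraries compared, calls that also needed a 2-fold change, each library left out, and both Z1flag experiment 1 libraries left out. The fit was also run on simulated data in which only a small part of the genes changed. Far more were called in the real data, so that run does not test the fit under these conditions. Its outcome is not given here. Members and lists were chosen with earlier results of these data known. Named members were those past the threshold in either line with a mean of at least 5 CPM, plus a fixed set of pumps and sterol exporters. From each other list, counts and up to 3 genes with the smallest adjusted p over both lines are given; further partners were named after their values were seen. Some genes that enter the counts are not reported here by name.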

Additional observations from a re-analysis of the deposited data

Results flagged for a closer look

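For 5 members, 1 of the 4 libraries of a state lay far from the other 3 by Dixon's test over the spread of the state. In postconfluent cells these were ABCE1, at 97.19 CPM in library 1 of Z2flag Pc (the other 3 at 62.2 to 67.9), and ABCF2, at 15.32 CPM in library 1 of Z1flag Pc (the other 3 at 21.4 to 22.5). In subconfluent cells they were ABCC4, at 253.7 CPM, and ABCC2, at 157.9 CPM, both in library 1 of Z1flag Sc, and ABCA5, at 6.05 CPM in library 2 of Z2flag Sc, where the other 3 lay at 4.96 to 5.04. The test was made on 40 groups of 4 libraries, and chance flags about 1 in 20.

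Among the ABC rows that are not protein coding, 4 were tested. ABCA11P had a log2 fold change of -1.648 in Z2flag and -1.429 in Z1flag, and ABCA17P -0.8503 in Z2flag, all past the threshold. These pseudogenes were not members and entered no count of the report.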

How the results depend on the processing

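Of the 13 members called in Z2flag, 6 were called under every alternative run (ABCA2, ABCC3, ABCC9, ABCD3, ABCE1 and ABCF2), and of the 15 called in Z1flag, 8 were (the same 6 with ABCA5 and ABCC4). No called value changed sign; 38 of 1139 recomputed log2 fold changes changed sign, all without a call. With 1 library left out, the lone library of a group is assumed to vary like the others. Members higher then ranged from 2 to 8 in Z2flag, from 4 to 11 in Z1flag and from 6 to 10 over both lines; members lower ranged from 5 to 8 in Z2flag, from 6 to 10 in Z1flag and from 8 to 11 over both lines. Upper-quartile scaling gave 10 higher in Z1flag, and calls that also needed a 2-fold change gave 4 higher over both lines; by construction these drop ABCB10 in both lines and ABCD4 and ABCG2 in Z1flag. Without both Z1flag libraries of experiment 1, ABCB8 (adjusted p = 0.0521), ABCD4 (0.0835), ABCF1 (0.0664) and ABCG2 (0.322) lost their Z1flag calls. Members that differed between lines in Pc numbered 1 with no low-count filter (ABCA1, -1.02, adjusted p = 0.0157) and 0 to 4 with 1 library left out. The cause of the other shifts was not tested.

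The replicate numbers, which the titles give as experiments, were not taken to pair the libraries, since the labels name no shared culture or day. Correlations of same-numbered libraries' deviations ran from -0.18 to 0.178 between groups, which cannot settle whether the libraries are paired. Both Z1flag libraries of experiment 1 do share a higher share of reads outside genes. With the replicate block, 5 members were higher and 8 lower in Z2flag, 6 higher and 8 lower in Z1flag, and 7 higher and 9 lower over both lines; ABCG2 in Z1flag was the call it ended (adjusted p = 0.0569). A crossed replicate block between the lines in Pc, added after seeing the data, called 0 members. At this depth the 13 members under the filter had too few counts to pass it, so the fit that used it did not test them. The run with no low-count filter covered those with any count, and its results for them are not reported here.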
